A study of Homo sapiens with 58 samples.

Results

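Aldehyde dehydrogenases oxidise aldehydes to acids, and 10 genes of this family (ALDH1A1, ALDH1A2, ALDH1A3, ALDH1B1, ALDH2, ALDH3A1, ALDH3A2, ALDH3B1, ALDH3B2 and ALDH1L2) were followed across 58 breast cancer cell lines. They are 10 of the 19798 genes that the arrays name and 10 of the 19 genes of the aldehyde dehydrogenase family among them. Each gene was read from the probe set that names it alone and, where several do, has the highest mean. All 10 were among the 14651 genes counted as detected, that is above the median of the array in at least 3 units.

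RNA of each line was hybridised to 1 custom Affymetrix array, at baseline and without treatment, and the values are log2 intensities after robust multi-array averaging (RMA). The labels define no groups and no line was measured again, so every comparison runs between lines. Lines reported to come from 1 person or 1 parent line (AU565 with SKBR3, the 3 EFM192 lines, HMT3522S1 with HMT3522T42, MB157 with MDAMB157, MDAMB435S with M4A4 and NM2C5, VP229 with VP267) were averaged, which left 50 units, 44 of them single lines. The label breast cancer does not describe every line. MDAMB435S, M4A4 and NM2C5 are reported to be melanoma cells, and their mean over 4 melanocyte markers was 9.25, 9.77 and 11.30, above that of every other line. MT3 is also reported not to be of breast origin, and MCF102A, MCF12A, HMT3522S1 and SVCT are immortalised cells that were not derived as tumour lines. Where the immortalised lines are left out below, HMT3522T42, the malignant derivative averaged with HMT3522S1, is left out too. HS362T, HS579MG, HS605T and HS739T, here called the 4 fibroblast-like lines, and HS578T had means of 12.74 to 12.99 over 6 fibroblast markers, against 10.39 in the next line, MDAMB157.

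The family splits by substrate and by compartment. ALDH1A1, ALDH1A2 and ALDH1A3 are cytosolic enzymes that make retinoic acid, the ligand of nuclear retinoic acid receptors, from retinal. The mitochondrial enzymes ALDH2 and ALDH1B1 clear acetaldehyde, and ALDH1L2 oxidises formyl-tetrahydrofolate to carbon dioxide and tetrahydrofolate in the same organelle. The ALDH3 enzymes act on medium and long chain aldehydes: ALDH3A2 is the fatty aldehyde dehydrogenase lost in Sjögren-Larsson syndrome, ALDH3A1 is abundant in the cornea, and ALDH3B1 and ALDH3B2 are lipid-anchored enzymes of membranes and lipid droplets. In breast tissue the family is best known from the ALDEFLUOR assay, which sorts cells with high aldehyde dehydrogenase activity, often ascribed to ALDH1A1 or ALDH1A3, as candidate stem cells.

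The promoters of ALDH1A1 and ALDH1A3 are shown because these enzymes catalyse the same reaction and, by the values that follow, had their highest levels in different lines. Each runs from 250 bases before the start of the gene to 50 bases after it, 5′ to 3′ on the strand of the gene, in RefSeq's GRCh38.p14 table, and capitals mark each CG dinucleotide. The first lies at chr9:72953004-72953303 (minus strand) and the second at chr15:100879581-100879880 (plus strand).
ALDH1A1: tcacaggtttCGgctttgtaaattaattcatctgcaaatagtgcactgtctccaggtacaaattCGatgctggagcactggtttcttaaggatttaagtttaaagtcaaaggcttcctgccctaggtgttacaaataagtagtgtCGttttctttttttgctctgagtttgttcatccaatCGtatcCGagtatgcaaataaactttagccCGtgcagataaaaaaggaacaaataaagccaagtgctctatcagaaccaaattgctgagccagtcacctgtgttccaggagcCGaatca
ALDH1A3: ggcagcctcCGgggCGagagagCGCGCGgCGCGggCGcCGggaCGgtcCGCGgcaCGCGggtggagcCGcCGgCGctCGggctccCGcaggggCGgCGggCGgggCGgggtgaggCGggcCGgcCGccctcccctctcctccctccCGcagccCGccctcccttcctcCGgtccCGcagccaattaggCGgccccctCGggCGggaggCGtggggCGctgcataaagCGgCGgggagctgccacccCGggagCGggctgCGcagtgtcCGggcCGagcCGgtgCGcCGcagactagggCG
The ALDH1A1 window held 7 CG dinucleotides at 40.3% G and C, and 37.5% of the 27305 promoters in the table held fewer. The ALDH1A3 window held 46 at 81.7% G and C, and 2.83% of promoters held at least as many. Of the other retinal dehydrogenase, ALDH1A2, the first of 2 listed starts had 41 and the second had 1, against a median of 14 over all promoters. ALDH1B1 had 27, ALDH3A2 had 12 and 27 at its 2 starts, and ALDH3B1 had 4 and 12; the other members were not matched in the table. The letters CCAAT, searched on both strands, stood in both printed windows and in 35.7% of all promoters. The letters AGGTCA, the core element of many nuclear receptors, stood in none of the windows of the members and in 13.9% of all promoters. No methylation or binding was measured here.

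Most members differed strongly between lines. In 8 of the 10, all but ALDH1B1 and ALDH3A2, the SD over the 50 units was at least 1 on the log2 scale, where 34.2% of detected genes reached that spread (5004 of 14651). The members were chosen with earlier results of these data known, so setting them beside all detected genes is a description and not a test. ALDH1A2 was at background in 47 of 50 units and reached its SD of 1.23 with DU4475 at 11.23. The median SD was 1.64 log2 over the members and 0.70 over all detected genes. Within the 6 sets of common origin (8 degrees of freedom) the median SD was 1.06 over the members and 0.44 over all detected genes. That spread within sets stands in for the replicates the design lacks, and in it array error and divergence of the lines cannot be told apart. When the probe sets of each gene were averaged instead, 6 members reached an SD of 1.

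**Figure D1:**
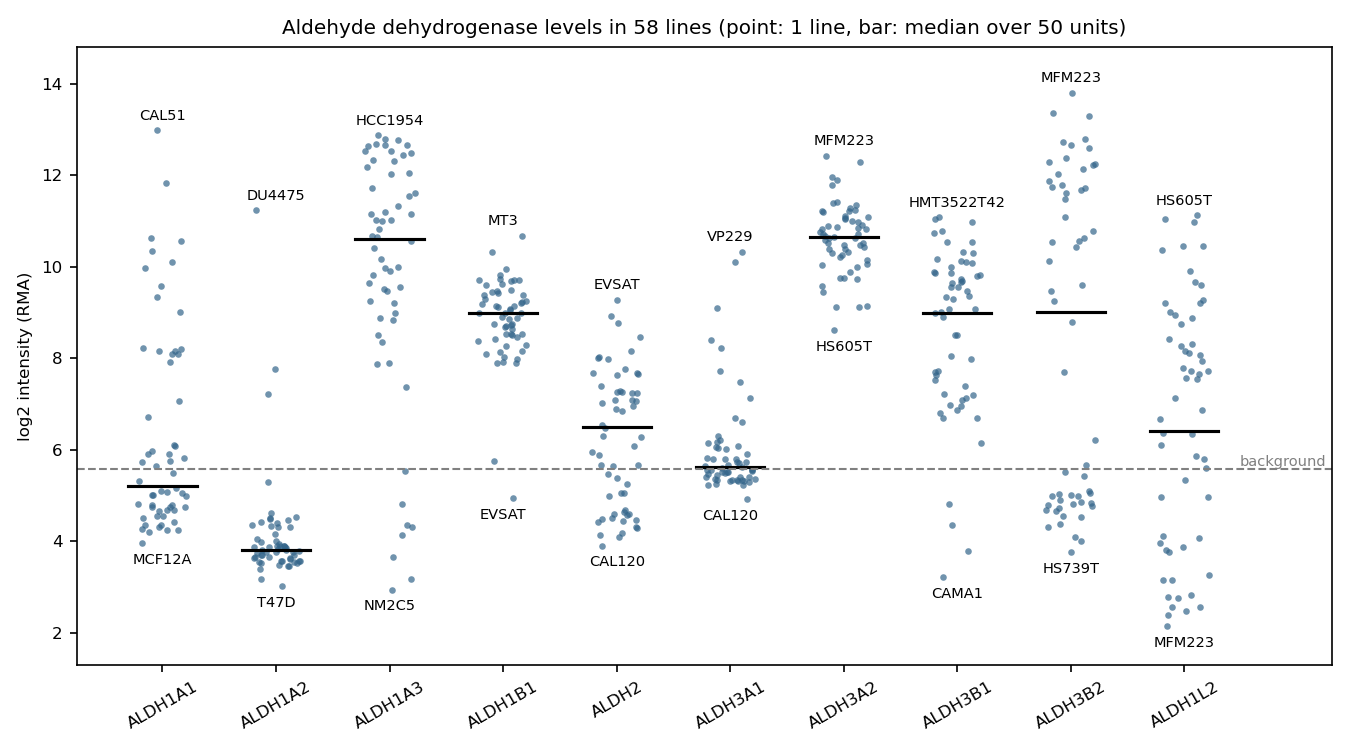
Log2 intensity (vertical axis) of the 10 aldehyde dehydrogenase genes in each of the 58 lines (points, spread sideways for legibility), with the median over 50 units as a black bar and the highest and lowest line named. The dashed line is the background of 5.59, and each gene has its own probe response, so heights are comparable within a gene. ALDH1A2 stands above background in DU4475 and 2 other lines, while ALDH3B2 forms a high and a low group.

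Levels at or under 5.59, the 95th percentile of 648 probe sets for viral genes, were treated as background. Each value is that of a whole culture, so less RNA in every cell and fewer cells that hold the RNA cannot be told apart. ALDH1A1 had its lowest level in MCF12A (3.97), a median of 5.21 and its highest level in CAL51 (12.98). It was at background in 27 of 50 units. Next to CAL51 came MT3 at 11.82, HCC70 at 10.56, EVSAT at 10.34, SW527 at 10.10 and HCC1937 at 9.97. The units fell into separate clusters of 18 high units, from 6.11 upwards, and 32 low ones, up to 5.92. Neighbouring units in the order never differed by more than the SD within sets of common origin (1.28), so the order of CAL51 and MT3 is not resolved. All 4 probe sets of ALDH1A1 placed CAL51 highest, and the 3 not used correlated with the one used at r of 0.98 each.

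ALDH1A2 was at background in 47 of 50 units, with a lowest level of 3.03 in T47D and a median of 3.82. DU4475, a basal-like line that grows in suspension, stood alone at 11.23. MDAMB468 followed at 7.21, a gap of 4.02 log2, and 0.567% of detected genes had 1 unit at least 3 log2 above all others. The third unit above background was the average of MB157 and MDAMB157, where MDAMB157 had 7.77 and MB157 had 3.99.

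ALDH1A3 was the reverse in its distribution, since most lines were high. Its level was 3.67 in CAL51, the lowest unit, with a median of 10.61 and a highest level of 12.87 in HCC1954. HS605T at 12.80, HCC1143 at 12.77, HCC38 at 12.69, DU4475 at 12.67 and MCF102A at 12.66 followed, and 15 units lay within 1 log2 of the top. The 6 units at background were CAMA1 (5.54), MFM223 (4.82), MT3 (4.37), MDAMB453 (4.32), CAL148 (4.13) and CAL51. Of single lines, NM2C5 (2.95) and M4A4 (3.19) were lower still, but averaging with MDAMB435S (11.54) put their unit at 5.89. CAL51 and MT3, the highest units for ALDH1A1, were thus among the lowest for ALDH1A3. Over all 50 units r between the 2 genes was −0.19 with a rho of 0.01, and r was 0.10 without CAL51 and MT3. Within the ALDH1A1 clusters r was −0.58 over the 18 high units, which include CAL51 and MT3, and 0.18 over the 32 low units. The r of the high units was not recomputed without CAL51 and MT3. Other units of the high ALDH1A1 cluster had high ALDH1A3, such as HCC70 (11.15) and HCC1937 (12.49), while MFM223 (4.82) did not.

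Among the mitochondrial enzymes, ALDH1B1 varied least, with an SD of 0.89. Its lowest level was 4.95 in EVSAT, its median 8.99 and its highest level 10.68 in MT3. EVSAT was the only unit at background, and VP229 at 5.75 was the only other line near it; VP267, from the same person, had 8.13.

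ALDH2 was lowest in CAL120 (3.91) and highest in EVSAT (9.28), with a median of 6.49 and 17 units at background. AU565 and SKBR3, averaging 8.86, came next, followed by MDAMB361 at 8.47, while HCC1937 (4.13), SVCT (4.19), HCC1143 (4.29) and MCF102A (4.31) were at the low end. EVSAT was therefore highest for ALDH2 and lowest for ALDH1B1, and r between these 2 genes was −0.35 over the 50 units (rho −0.31). The second probe set of ALDH2 was flat, with an SD of 0.21 and an r of −0.01 with the one used, so the ALDH2 values rest on 1 probe set. ALDH1A3, ALDH3A1 and ALDH3B1 had only 1 probe set each, so theirs do as well.

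ALDH1L2 had its lowest level in MFM223 (2.15), a median of 6.41 and its highest level in HS605T (11.13), with 19 units at background. The 5 highest units were the 5 lines with the highest means over the fibroblast markers: HS605T, HS579MG at 11.04, HS739T at 10.97, HS578T at 10.46 and HS362T at 10.46. FR2 followed at 9.60 and the average of VP229 and VP267 at 9.39. At the low end stood ZR751 (2.40), KPL1 (2.48), MDAMB361 (2.56), MT3 (2.57) and COLO824 (2.76). The mean over the 6 fibroblast markers correlated with ALDH1L2 at r of 0.64 over 50 units. It did so at 0.48 over the 46 units without HS362T, HS579MG, HS605T and HS739T, which still include HS578T. All 6 of those markers were at background in 24 of the 58 lines, and their part in the ALDH1L2 levels was not tested.

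ALDH3A1 was near background in most units, with a lowest level of 4.92 in CAL120, a median of 5.62 and 23 units at background. It was high in few: HCC1937 had 10.10, HCC1806 had 9.10, HCC1395 had 8.39 and BT549 had 7.49. Single lines within sets of common origin were also high, with 10.33 in VP229, 8.23 in HMT3522T42, 7.72 in VP267 and 7.13 in HMT3522S1.

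ALDH3A2 was above background in every unit, from 8.62 in HS605T through a median of 10.66 to 12.43 in MFM223 and 12.28 in BT20. Its lowest 4 units were HS605T, HS579MG (9.13), HS739T (9.13) and CAL120 (9.14). Its r with the mean fibroblast marker level was −0.52 over 50 units, and −0.18 without the 4 lines HS362T, HS579MG, HS605T and HS739T. The SD within sets, 0.31, was the smallest of the 10 members.

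Over the 50 units ALDH3B1 ranged from 3.23 in CAMA1 to 11.05 in SUM149PT with a median of 9.0, and the highest single line was HMT3522T42 at 11.08. Only CAMA1, CAL148 (3.79), MDAMB453 (4.37) and COLO824 (4.82) were at background. The first 3 of these were also among the 6 units in which ALDH1A3 was at background, and r between the 2 genes was 0.51 (rho 0.35), falling to 0.38 without the 2 units farthest from the ALDH3B1 median. In the slope fit on ALDH1A3 described below, ALDH3B1 changed by 0.36 ± 0.09 log2 (SE) per log2 of ALDH1A3, with an adjusted p of 0.0364. It was called in 8 of 12 alternative settings. Leaving out the cluster term, or probe sets marked _x_ or _s_, repeated the main fit on ALDH1A3 and is no separate check. The settings that lost the call were all 58 lines as units, and those without the immortalised lines, without the 4 fibroblast-like lines, or without CAL51 and CAL148. In the first 2 of these ALDH1A3 newly met the rule for separate clusters, so that a cluster term entered the fit as well, and the slope of ALDH3B1 on ALDH1A3 was 0.08 (adjusted p 0.87) and 0.14 (adjusted p 0.818). With those units and no cluster term it was 0.35 (adjusted p 0.0127) and 0.37 (adjusted p 0.0457).

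ALDH3B2 had the widest spread, an SD of 3.49, larger than that of 99.7% of detected genes. It ran from 3.76 in HS739T through a median of 9.02 to 13.80 in MFM223. MDAMB468 at 13.36, MDAMB361 at 13.30, MDAMB453 at 12.79, EVSAT at 12.72 and OCUBM at 12.66 followed. The units formed separate clusters, 28 from 7.12 upwards with a median of 11.68, and 22 up to 6.21 with a median of 4.83. The unit at 7.12 averages MB157 (9.46) and MDAMB157 (4.78). Of the 50 units 20 were at background. ALDH3B1, its neighbour on chromosome 11, did not share this pattern, with an r of −0.23 between the 2 genes. CAMA1, CAL148 and MDAMB453, at background for ALDH3B1, were all in the high ALDH3B2 cluster.

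**Figure D2:**
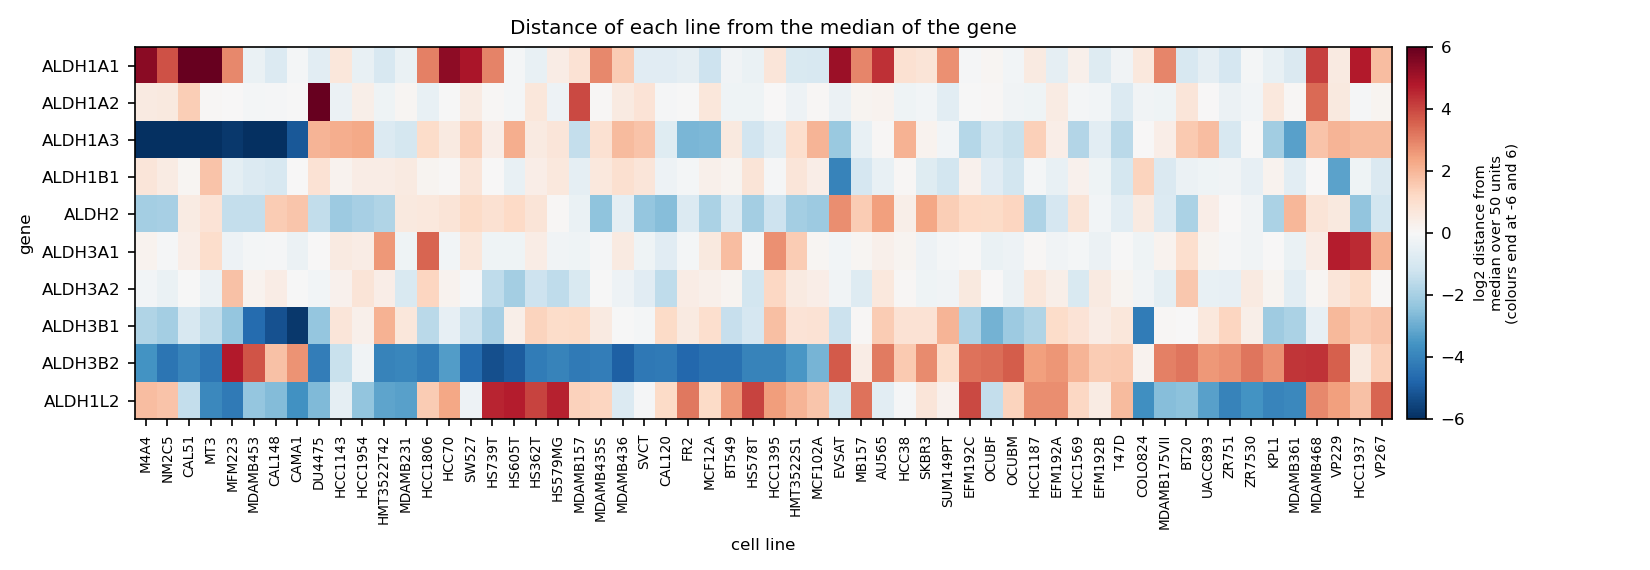
Distance of each of the 58 lines (columns) from the median of each gene over 50 units (rows), in log2, with red above and blue below and colours ending at −6 and 6. Columns are ordered by average linkage of these values. Of the lines deepest blue for ALDH1A3, CAL51, MT3, MFM223 and M4A4 with NM2C5, of 1 origin, are red for ALDH1A1. CAL148, MDAMB453 and CAMA1 are not. The ALDH3B2 and ALDH1L2 rows change over blocks of lines.

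No line was at least 2 log2 above the median of the gene for most members. That rule was met by no line for ALDH1B1 or ALDH3A2, whose highest lines stood 1.69 (MT3) and 1.77 (MFM223) above the median. HCC1937 was above the median, by 0.58 to 4.76, in all members but ALDH1A2, ALDH1B1 and ALDH2. VP229 and MDAMB468 each had 4 members at least 2 log2 above the median of the gene, AU565 and EVSAT had 3, and 9 lines had none. The VP229 members were ALDH1A3, ALDH3A1, ALDH3B2 and ALDH1L2, and those of MDAMB468 were ALDH1A1, ALDH1A2, ALDH3B2 and ALDH1L2. At most 3 members lay at least 2 log2 below their median in 1 line, in 9 lines. In MFM223, CAMA1, CAL148, MDAMB453 and KPL1 these 3 were the same genes, ALDH1A3, ALDH3B1 and ALDH1L2.

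Of the 45 pairs of members 2 had an r of at least 0.5 in either direction across the 50 units, where between 0.0956% and 11.7% of all detected genes reached that r with a given member. These were ALDH1A3 with ALDH3B1 and ALDH1B1 with ALDH3B2 (r −0.56, rho −0.62). Within the ALDH3B2 clusters the r with ALDH1B1 was −0.31 over the 28 high units and 0.11 over the 22 low units. ALDH3A1 and ALDH3A2, neighbours on chromosome 17, had an r of 0.48. These values are descriptions; the lines share the array platform and its normalization.

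Lines of common origin differed by at least 1 log2 in several members, most often beyond the share of all detected genes that did so. That count was 6 of 10 members for VP229 and VP267, where 25.5% of detected genes differed as much, and 6 of 10 for MB157 and MDAMB157, where 24.7% did. It was 5 for the 3 EFM192 lines (36.4%), 4 for HMT3522S1 and HMT3522T42 (13.7%), 3 for MDAMB435S, M4A4 and NM2C5 (18.5%) and 2 for AU565 and SKBR3 (9.1%). With 10 genes and 1 array per line, these counts describe the sets and were not tested.

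The retinal dehydrogenases showed the widest gap within a set. ALDH1A3 was at 3.19 in M4A4 and 2.95 in NM2C5, against 11.54 in MDAMB435S, a range of 8.59 log2. M4A4 and NM2C5 are clones drawn from MDA-MB-435 cells, and both lay below the background that MDAMB435S exceeded. ALDH1A1 in the same lines was 10.63 in M4A4 and 9.01 in NM2C5, against 8.10 in MDAMB435S, and ALDH3B1 was 7.20 and 6.96, against 9.55. ALDH1A1 also differed between AU565, at 9.59, and SKBR3, at 5.98, and ALDH1L2 was the only other member that differed by at least 1 log2 there (5.80 in AU565, 7.13 in SKBR3).

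ALDH1L2 was at 3.27 in HMT3522T42, the malignant derivative, against 8.43 in HMT3522S1, so only the derivative was at background. In that pair ALDH3B1 was 11.08 against 9.83, ALDH3A1 8.23 against 7.13 and ALDH1A3 9.81 against 11.62. MB157 and MDAMB157 differed in ALDH3B2, with 9.46 in MB157 and 4.78 in MDAMB157, which put them on either side of the gap between the ALDH3B2 clusters. Their markers differed too: the epithelial mean was 10.94 in MB157 and 7.02 in MDAMB157, and the fibroblast mean 5.11 and 10.39. The mean over 2 basal markers was 10.47 in MB157 and 6.03 in MDAMB157. The part of these markers in the ALDH3B2 difference was not tested. They also differed in ALDH1A1 (8.15 in MB157, 6.09 in MDAMB157) and ALDH2 (8.03 and 6.09). The 3 EFM192 lines ranged over 3.49 in ALDH1L2 and 2.96 in ALDH3B1. ALDH3A2 never differed by 1 log2 within a set, its range reaching 0.89 in AU565 and SKBR3.

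**Figure D3:**
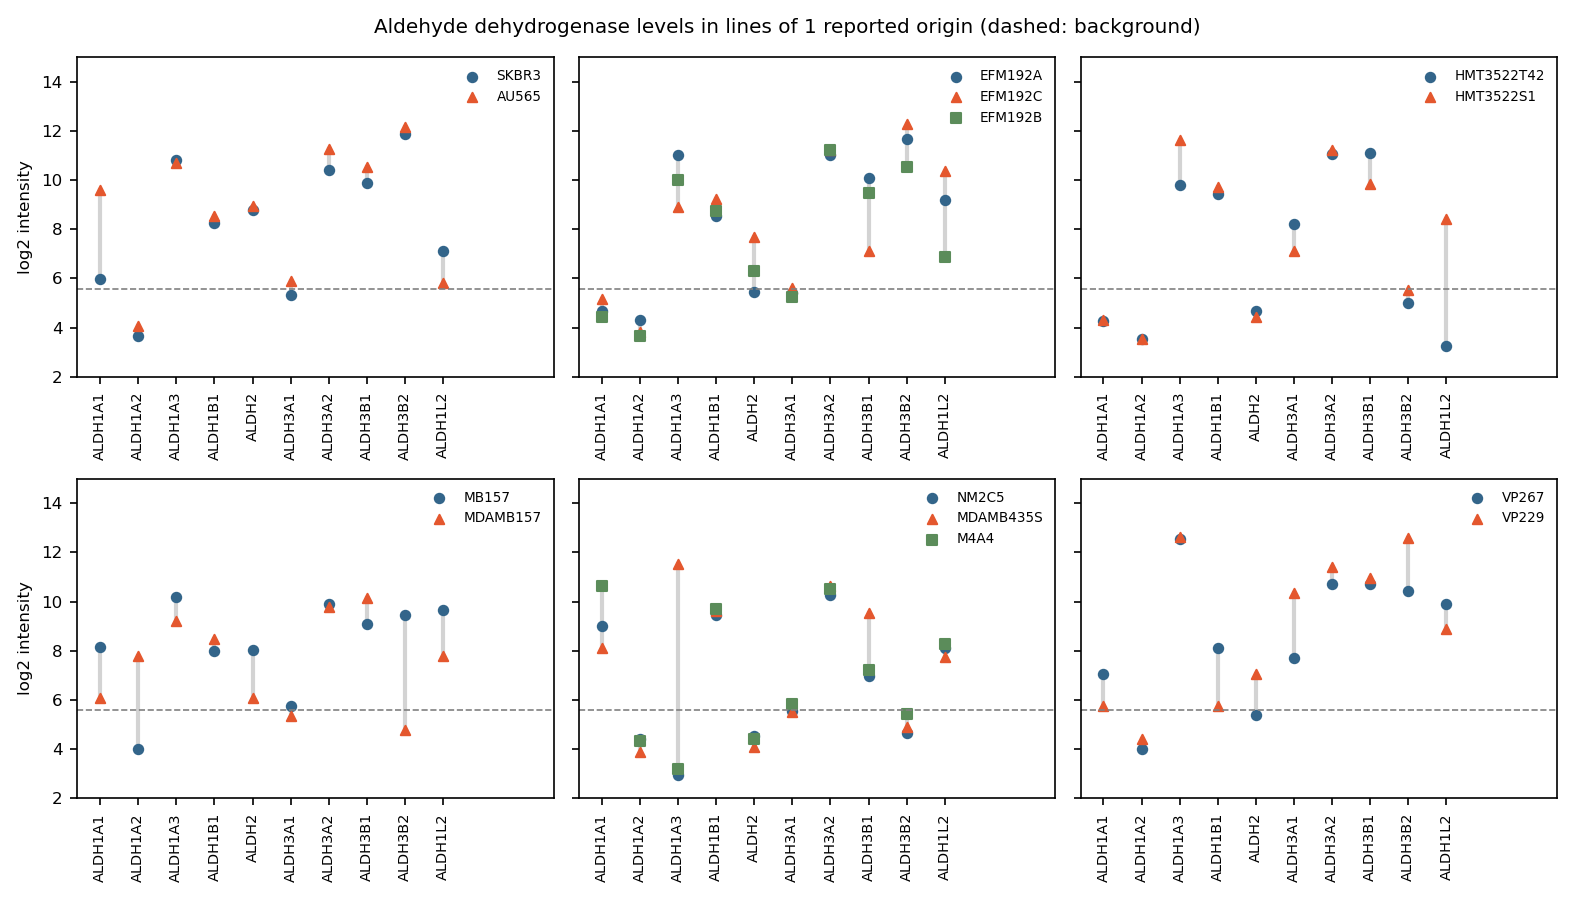
Log2 intensity of the 10 aldehyde dehydrogenase genes in the 6 sets of lines of 1 reported origin, with 1 symbol per line, grey bars over the range of the set and the background of 5.59 dashed. The longest bars are ALDH1A3 in the MDA-MB-435 lines (range 8.59), ALDH1L2 in the HMT3522 lines (5.16) and ALDH3B2 in MB157 and MDAMB157 (4.68).

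To place the members among breast cancer subtypes without group labels, every detected gene was regressed on the level of a lineage gene: ESR1, the oestrogen receptor; ERBB2, the receptor amplified in HER2-positive cancer; CDH1, the epithelial adhesion protein E-cadherin; and KRT5, a basal keratin. Slopes are in log2 of the gene per log2 of the lineage gene, with the SE, and p-values were adjusted over all 14650 other detected genes by the Benjamini-Hochberg method in limma. ESR1, CDH1 and KRT5 fell into separate high and low clusters of units, so their fits carried a term for the cluster and the slope was read within clusters.

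The level of ERBB2 went with 3 of the 10 members, 2 rising and 1 falling. Of all detected genes 21.3% were called at an adjusted p under 0.05, 12.3% rising and 8.96% falling. The count of members is near that share and is no result about the family. ALDH3B2 rose by 1.72 ± 0.23 log2 per log2 of ERBB2 (adjusted p 2.57e-06), and it was called in all 12 alternative settings with slopes from 1.21 to 1.79. As ERBB2 had no cluster term, leaving that term out repeated the main fit, as did leaving out probe sets marked _x_ or _s_. ALDH2 rose by 0.36 ± 0.13 (adjusted p 0.0443) and ALDH1B1 fell by 0.23 ± 0.08 on the log2 scale (adjusted p 0.0353). The call was lost in 4 of 12 settings for ALDH2 (highest adjusted p 0.121) and in 2 of 12 for ALDH1B1 (highest adjusted p 0.0733). ALDH1L2 had a slope of −0.65 ± 0.25 and missed the threshold at an adjusted p of 0.0515.

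The relation of ALDH3B2 with ERBB2 ran across its own 2 clusters. Every unit of the low ALDH3B2 cluster had an ERBB2 level of at most 11.28, and every unit above that level was in the high cluster, down to 8.79 in HCC1954. High ALDH3B2 also occurred at lower ERBB2, since MFM223 and MDAMB468 reached 13.80 and 13.36 at ERBB2 levels of 10.56 and 10.08. Within the 28 high ALDH3B2 units r with ERBB2 was 0.33, and within the 22 low units it was 0.06. The epithelial and luminal marker means moved with ALDH3B2 as well, at r of 0.71 and 0.73 over 50 units, and their part in the ERBB2 slope was not tested.

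**Figure D4:**
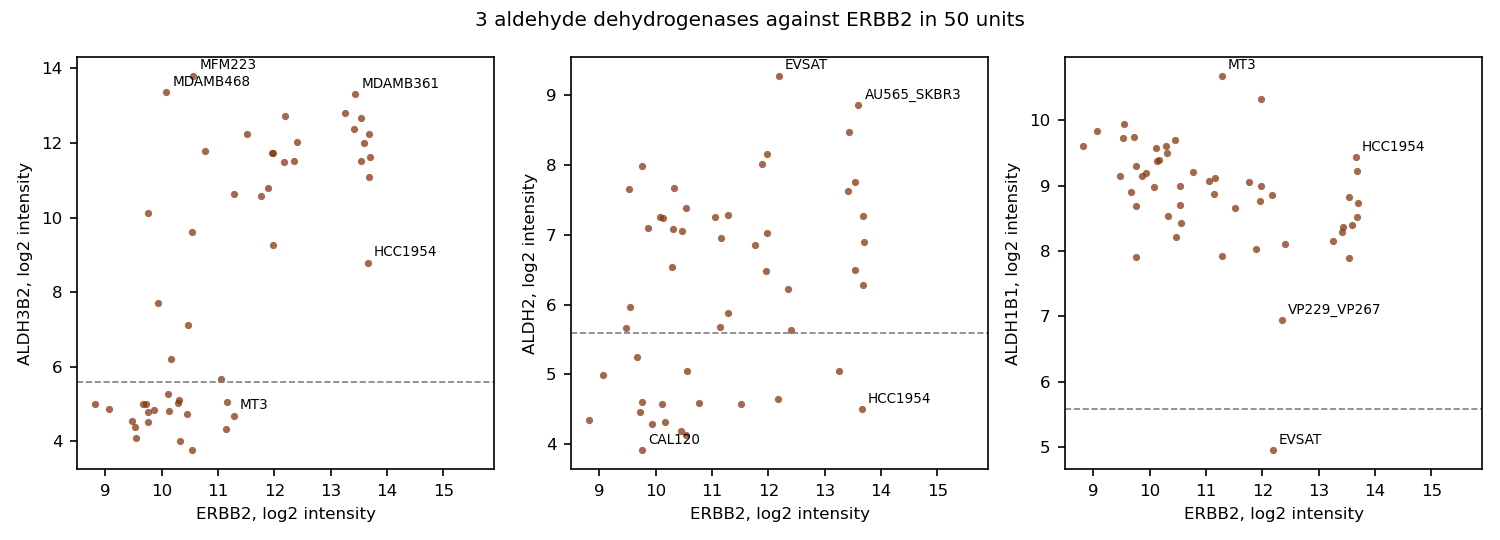
Log2 intensity of ALDH3B2, ALDH2 and ALDH1B1 (vertical axes) against that of ERBB2 (horizontal axes) in 50 units (points), with the background of 5.59 dashed and some units named. All units above an ERBB2 level of 11.28 are in the high ALDH3B2 cluster, and below it both clusters occur. The ALDH2 and ALDH1B1 clouds are wide beside their slopes of 0.36 and −0.23.

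On CDH1, where 2.35% of genes were called, ALDH1L2 fell by 0.70 ± 0.20 on the log2 scale per log2 of CDH1 within the CDH1 clusters (adjusted p 0.0474), and no other member was called. The call was kept in 7 of 12 settings, and the slope lay between -0.78 and -0.39 in all of them. Without the 4 fibroblast-like lines the slope of ALDH1L2 on CDH1 was -0.51 (adjusted p 0.563), in a setting that called 8 genes in all. Without the cluster term 22.5% of genes were called, and ALDH3B2 joined with a slope of 0.65 ± 0.12 (adjusted p 7.01e-05), while ALDH1L2 had −0.39 ± 0.10 (adjusted p 0.00436).

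On ESR1 no member was called within its clusters, where 0.833% of genes were. ALDH3B2 came nearest at 0.78 ± 0.25 (adjusted p 0.104) and was called without the cluster term at 0.60 ± 0.14 (adjusted p 0.00548), where 6.75% of genes were called. On KRT5 limma called none of the 14650 genes, and 967 had an unadjusted p under 0.05. Without its cluster term 1.85% of genes were called, and of the members ALDH1A3 was, at 0.30 ± 0.08 (adjusted p 0.0276). ALDH1A3 went with the mean over 2 basal markers at r of 0.48 over 50 units. That r was 0.60 over the 46 units without the 4 fibroblast-like lines. KRT5 is itself among the 2 markers, so this r is not independent of the KRT5 slope. ALDH1A1, ALDH1A2, ALDH3A1, ALDH3A2 and ALDH3B1 were called on none of the 4 lineage genes with or without a cluster term.

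The same fit was then made on 4 members, to see how the other genes of their pathways moved with them. ALDH1A3, ALDH3A1 and ALDH1L2 had no cluster term in the main fit, so leaving it out is no separate check for them. On ALDH1A3, 64 genes were called (0.437%), 37 rising (0.253%) and 27 falling (0.184%). Of 22 detected genes of retinoid metabolism and signalling, 2 rose and none fell, with a median slope of 0.05 over the list and −0.01 over all genes. DHRS3, which reduces retinal to retinol, had levels of 12.40 in HCC1954 and 10.23 in CAL51, the units with the highest and lowest ALDH1A3, and rose by 0.40 ± 0.08 log2 per log2 of ALDH1A3 (adjusted p 0.0207). STRA6, the cell-surface receptor that takes up retinol, rose by 0.32 ± 0.07 (adjusted p 0.0207) and was highest in DU4475 at 10.94.

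Both DHRS3 and STRA6 were called in 11 of 12 settings. The exception left out the immortalised lines, where the ALDH1A3 units also met the rule for separate clusters: the slopes were 0.65 and 0.61 and the adjusted p 0.155 and 0.087. Without that added term the slope of DHRS3 on ALDH1A3 was 0.39 and the slope of STRA6 on ALDH1A3 was 0.33, each with an adjusted p of 0.0359. CYP26B1, which degrades retinoic acid, had a slope of 0.31 ± 0.08 and missed the threshold at an adjusted p of 0.0537, as did TGM2 (0.0812) and RARRES1 (0.0835), both known to be induced by retinoic acid. None of 14 detected stem cell markers was called on ALDH1A3.

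Among all genes, RUNX2, a transcription factor of bone and breast, rose by 0.50 ± 0.11, and ME1, the cytosolic malic enzyme and an NRF2 target, by 0.52 ± 0.11. The copper transporter gene SLC31A2 (0.22) and the adaptor gene CMIP (0.12) also rose. ACADSB, a mitochondrial acyl-CoA dehydrogenase, fell by 0.26 ± 0.05 on the log2 scale, and CA5B, LIG3, KBTBD6 and DNAJC22 fell by 0.12 to 0.38. The adjusted p was 0.0207 for each of these 9 genes. None of them was called without the immortalised lines, where a cluster term also entered the fit. RUNX2 was called in 8 of 12 settings, with a slope as low as 0.26 (highest adjusted p 0.502), and ME1 in 9 of 12 (highest adjusted p 0.475). The other 7 were called in 10 or 11 of 12.

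On ALDH1A1 only 4 genes were called (0.0273%) within its clusters, and none of 22 retinoid genes or 14 stem cell markers was among them. CDH17, an intestinal cadherin, rose by 0.91 ± 0.15 (adjusted p 0.00156) and was highest in CAL51 at 11.52. TANC2 (−0.79), TOGARAM1 (−0.45) and USP40 (−0.37) fell. Without CAL51 and MT3 limma called no gene (951 had an unadjusted p under 0.05), CDH17 was too low to be tested, and the slope of TOGARAM1 was 0.07. TANC2 was called in 8 of 12 settings and TOGARAM1 and USP40 in 4 of 12. CDH17 was tested in only 8 settings and called in each. It passed the filter on low values only through CAL51 and MT3, the units highest for ALDH1A1. That count therefore cannot show whether its slope holds without them. Among the stem cell markers LGR5 came nearest at 0.49 ± 0.11 (adjusted p 0.0779), and it was highest in MT3.

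**Figure D5:**
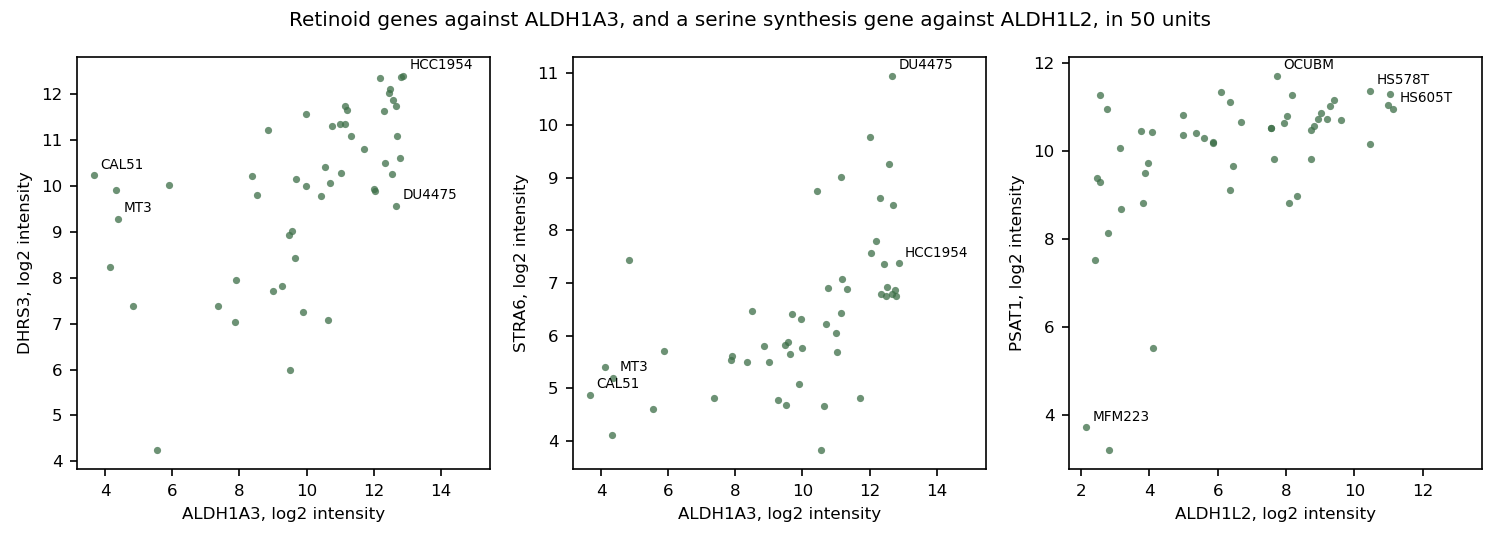
Log2 intensity of DHRS3 and STRA6 against ALDH1A3, and of PSAT1 against ALDH1L2, in 50 units (points) with some units named. DHRS3 is above 9 in every unit with ALDH1A3 above 12, STRA6 exceeds 8 only where ALDH1A3 is above 10, and the 3 lowest PSAT1 levels fall among units with ALDH1L2 under 4.5.

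On ALDH3A1, 38 genes were called (0.259%), 22 rising (0.15%) and 16 falling (0.109%). AKR1C3, an aldo-keto reductase and target of the oxidative stress factor NRF2, rose by 1.54 ± 0.35 log2 per log2 of ALDH3A1 (adjusted p 0.0327). It was the only call among 16 detected NRF2 targets, and AKR1B10 (1.23 ± 0.30, adjusted p 0.0584) and AKR1C1 (1.36 ± 0.37, adjusted p 0.114) missed the threshold. All 16 slopes were above 0, with a median of 0.17 against -0.005 over all genes. AKR1C3 was called in 7 of 12 settings. Of 8 genes of the aryl hydrocarbon receptor pathway, which induces ALDH3A1 in several tissues, none was called, and CYP1A1 had a slope of 0.14 ± 0.16.

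DMRTA2 (1.04), TRIM31 (0.66), BCO2 (0.64), HAND1 (0.57) and ALPG (0.32) had the smallest adjusted p among rising genes, and ADD1 (−0.24), TMEM128 (−0.29), STK25 (−0.22), ZNF24 (−0.29) and TXNL4A (−0.26) among falling ones. TRIM31, BCO2 and ALPG were highest in HCC1937, and HAND1 was highest in HCC1806. DMRTA2 was highest in MT3, a line reported not to be of breast origin. HCC1937 and HCC1806 are the units with the most ALDH3A1, and without both of them 1 gene was called. The slope of AKR1C3 on ALDH3A1 was then 2.04 (adjusted p 0.2), and it was at least 1.33 in all 12 settings. The slope of HAND1 on ALDH3A1 was 0.14 without those 2 units (adjusted p 0.868). DMRTA2 kept its call in 7 of 11 settings, and its slope was as low as 0.04 where ALDH3A1 newly met the cluster rule and a cluster term entered the fit. The other 8 genes were called in 7 to 10 of their settings, and none of the 10 without HCC1937 and HCC1806.

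ALDH1L2 went with far more of the transcriptome: 3187 genes were called (21.8%), 1386 rising (9.46%) and 1801 falling (12.3%). Of 21 detected genes of one-carbon metabolism and the amino acid response that ATF4 drives, 2 rose and none fell, so the rising share of the list was near that of all genes. PSAT1, an enzyme of serine synthesis, rose by 0.33 ± 0.08 log2 per log2 of ALDH1L2 (adjusted p 0.00184) and was called in all 12 settings, with slopes up to 0.47. CHAC1, which degrades glutathione, rose by 0.17 ± 0.06 (adjusted p 0.0253), but was not called without HS605T and HS579MG or without those and HS362T and HS739T (highest adjusted p 0.351). MTHFD2 (−0.01), SHMT2 (0.01) and PHGDH (0.14 ± 0.07, adjusted p 0.128), of the same pathways, were not called.

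The 5 rising and 5 falling genes with the smallest adjusted p on ALDH1L2 had their highest levels in 9 different units. ENG, the TGF-beta co-receptor endoglin, rose by 0.48 ± 0.05 (adjusted p 2.06e-08) and was highest in HS579MG at 11.68. ADAM12 (0.76), OPTN (0.50), PXDC1 (0.42) and LOXL2 (0.62) rose too, and KCNJ11 (−0.49), COBL (−0.51), TOM1L1 (−0.32), FBXO41 (−0.26) and NBEAL2 (−0.26) fell. Without HS362T, HS579MG, HS605T and HS739T 485 genes were called, and ENG, ADAM12 and KCNJ11 were called in all 12 settings. Among the members, ALDH3B2 fell by 0.55 ± 0.16 on the log2 scale and ALDH3B1 rose by 0.26 ± 0.09 (adjusted p 0.0117 and 0.0293). Without those 4 lines neither was called, although the slope of ALDH3B2 on ALDH1L2 was -0.44 (adjusted p 0.171) and the slope of ALDH3B1 on ALDH1L2 was 0.29 (adjusted p 0.087). ALDH3B1 also missed the threshold with all 58 lines as units and without HS605T and HS579MG, at slopes of 0.22 and 0.26. ALDH1A3, at 0.33 ± 0.13, was called only marginally, with an adjusted p that rounds to 0.05, and the call was not kept in most settings.

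The genes whose levels followed each member most closely differed in how firmly they did so. ALDH3B2 was followed by TMPRSS13, a membrane serine protease (r 0.84), CREB3L4, a transcription factor of secretory epithelium (r 0.83), and RGL2 (r 0.82), each over 50 units, and 11.7% of detected genes had an r of at least 0.5 with it in either direction. Part of this lay between its clusters: within the 28 high units r was 0.43, 0.67 and 0.64, and within the 22 low units 0.14, 0.21 and 0.15. ALDH1L2 was followed by ENG (r 0.80), ADAM12 (r 0.73) and OPTN (r 0.72), which stayed at 0.68 or more without HS605T and HS579MG.

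For ALDH1A3 the nearest genes were DHRS3 (r 0.57, rho 0.68), CMIP (r 0.56) and RUNX2 (r 0.56). ALDH2 was followed by MIR99AHG (r 0.60), HNMT, which inactivates histamine (r 0.57), and SLC1A2 (r 0.55). ALDH3A2 was followed by HNRNPF (r 0.65), PSMA3 (r 0.64) and HDGF (r 0.64), genes with SDs of 0.28 to 0.38. ALDH3B1 went with SP140L (r 0.62), the complement gene C3 (r 0.61) and FNDC3B (r 0.61), and ALDH1B1 with SUGT1 (r 0.64), MTMR2 (r 0.63) and PMAIP1 (r 0.59). Without the 2 units farthest from the ALDH1B1 median these were 0.47, 0.40 and 0.51.

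LINC00636, ASCL5 and CALML3 had r of 0.83, 0.81 and 0.81 with ALDH1A2, all were highest in DU4475, and r lay between −0.01 and 0.06 without DU4475 and MDAMB468. TRIM31, DMRTA2 and HAND1 had r of 0.71, 0.70 and 0.66 with ALDH3A1, and 0.58, 0.58 and 0.22 without HCC1937 and HCC1806. For ALDH1A1 the nearest genes were CALB1 (r 0.59, rho 0.25), GDA (r 0.58) and CRYBG2 (r 0.57), and r was 0.39, 0.48 and 0.50 without CAL51 and MT3. Within the ALDH1A1 clusters r with CALB1 was 0.59 over the 18 high units and 0.21 over the 32 low units.

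Genes beside the ALDH3 pairs on the chromosome were examined because amplification can move neighbours together; copy number was not measured. Around ALDH3B1 and ALDH3B2 on chromosome 11, 15 neighbours were detected. ALDH3B2 had a median r of 0.35 with them, against 0.05 with all detected genes, and was lower where GSTP1, a glutathione transferase, was higher (r −0.71). Its next strongest relations were with CHKA (r 0.51), choline kinase, and NDUFV1 (r 0.49), of mitochondrial complex I. Within the 28 high ALDH3B2 units these were −0.39 for GSTP1, 0.02 for CHKA and 0.35 for NDUFV1. ALDH3B1 had a median r of 0.03 with the same neighbours, with NUDT8 at −0.40, PPP6R3 at −0.16 and UNC93B1 at 0.16. On chromosome 17, ALDH3A2 had a median r of 0.20 over 10 neighbours, with MFAP4 at −0.51, EPN2 at 0.47 and SLC47A2 at 0.33. ALDH3A1 had a median of 0.01 over the same genes, with SLC47A1 at 0.36, ULK2 at −0.35 and SLC47A2 at 0.30.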

How the data were processed

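The authors deposited log2 intensities, made by RMA with Affymetrix Power Tools per the submitters' processing notes; versions are not given in the sources used here. RMA corrects background, equalises the distributions of the arrays and summarises probes, so levels are relative to the other arrays. Precision is limited by 1 array per line. Array medians ran from 5.37 to 5.58, and relative log expression had interquartile ranges of 0.45 to 0.64. Of 52377 probe sets, 35184 named 1 gene, 374 several and 16819 none; only the first kind was used.

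Members, gene lists and units were chosen with earlier results of these data known; the grouping of lines by origin rests on textbook knowledge. Named genes are the 10 members, the 3 detected genes with the highest r for each, up to 5 called genes per pathway list read for a member, the 5 genes with the smallest adjusted p in each direction in the fits on members, the 3 most correlated neighbours, the other family genes and the lineage genes; a few listed genes that missed the threshold were added after their values were seen. Fits used limma 3.58.1 (lmFit, eBayes with trend and robust) in R 4.3.3, with Benjamini-Hochberg adjustment over all genes tested and a threshold of 0.05. A covariate was given a cluster term where mclust 6.1.1 preferred 2 normal components over 1 by more than 10 BIC units, with an Ashman D above 2 and at least 3 units in each. The fits were also run on simulated data, in which each gene was shuffled over the units and slopes were added to some genes. Shuffling removes the correlation between genes, so that run cannot show whether the calls hold in these data. Lines outside the sets of common origin were treated as coming from separate people, which the labels do not state. The p-values measure the spread between lines.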

Additional observations from a re-analysis of the deposited data

How the results depend on the processing

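Each result was recomputed under up to 12 alternatives. Of these 11 were planned and 1, leaving out the 2 units most distant from the covariate's median, was chosen after seeing the data. No single-gene probe set carries the _x_ or _s_ mark, so leaving such sets out changed nothing. Leaving out the cluster term also changed nothing for ERBB2, ALDH1A3, ALDH3A1 and ALDH1L2, whose main fits had none. Counts of settings for these 4 covariates include both repeats of the main fit. The ERBB2 count stayed within 1.5 times 3119 genes throughout, and the counts of members with an SD of at least 1 and of related pairs within 1.5 times theirs. Without the cluster term the counts were 989 for ESR1 (122 with it), 3303 for CDH1 (345) and 271 for KRT5 (0). With all 58 lines as units they were 413, 65 and 7, and 15 for ALDH1A3 (64 in the report) and 10 for ALDH3A1 (38). Without the 4 fibroblast-like lines they were 74 for ESR1, 8 for CDH1, 1 for ALDH1A1 (4) and 485 for ALDH1L2 (3187). Without the immortalised lines they were 56 for ESR1, 2 for ALDH1A1 and 0 for ALDH1A3 (1436 at an unadjusted p under 0.05 in limma). Without the MDA-MB-435 lines and MT3 they were 170 for CDH1, 187 for ALDH1A3 and 9 for ALDH3A1. Without the 2 farthest units they were 15 for ESR1, 141 for CDH1, 0 for ALDH1A1, 1 for ALDH3A1 and 1682 for ALDH1L2, and the slope of TOGARAM1 on ALDH1A1 was 0.066. The mean of all probe sets gave 0 for ALDH1A1 (731 at an unadjusted p under 0.05) and 25 for ALDH3A1, a second quantile normalization 2 and 13, no filter 16 for ALDH1A1, and the stricter filter 17 for ALDH3A1. In 5 of these cases the covariate newly met the cluster rule. Repeated without that term, as chosen after seeing the data, ALDH1A3 had 49 calls without the immortalised lines and 193 with 58 lines, and ALDH3A1 had 34, 39 and 38 with quantile normalization, 58 lines, and no MDA-MB-435 lines or MT3. The cause of the other shifts was not tested.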

Other observations

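The other 9 genes of the family, read the same way, were all detected. Their SDs over 50 units ran from 0.38 for ALDH9A1 and 0.39 for ALDH18A1, which makes a proline precursor, to 2.04 for ALDH5A1, the succinic semialdehyde dehydrogenase. ALDH5A1 was highest in DU4475, had a median of 9.16 and was lowest in the average of the MDA-MB-435 lines at 3.0. Between these lay ALDH16A1 (0.59), ALDH1L1 (0.75), ALDH6A1 (0.98), ALDH4A1 (1.07), ALDH8A1 (1.12) and ALDH7A1 (1.24). ALDH1L1, the cytosolic counterpart of ALDH1L2, had a median of 5.67 and a highest level of 9.25 in BT20, and its slope on ALDH1L2 was −0.01 ± 0.04 (adjusted p 0.86).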
